A study of Homo sapiens with 6 samples.

Results

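The 10 genes described here carry or answer the cellular response to low oxygen: the transcription factor subunit gene HIF1A, its regulators EGLN1, EGLN3 and VHL, and the HIF target genes NDRG1, VEGFA, ADM, BNIP3, ANKRD37 and CA9. They were chosen by symbol, with earlier results of these data known, and all 10 were found among the 19977 gene symbols of the table. mRNA libraries were made from U2OS cells, a human osteosarcoma line, in 2 groups of 3 libraries each. One group received a non-targeting control siRNA (siCtrl) and the other an siRNA against NUDT5 (siNUDT5), a hydrolase that acts on ADP-ribose. All 6 libraries came from otherwise untreated cells harvested 48 hours after transfection, and the labels name no low-oxygen treatment. Nothing in the labels says how many different siRNAs were used against NUDT5, nor that the libraries came from separate cultures, and p-values measure only the spread between these libraries.

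Cells with enough oxygen make HIF-1 alpha protein and destroy it at once. The EGLN enzymes hydroxylate prolines of the protein, VHL recognises the hydroxylated form, and a ubiquitin ligase built around VHL marks it for the proteasome. When oxygen or iron runs short the protein is spared, pairs with ARNT and binds a short DNA word, ACGTG or GCGTG, near its target genes. The factor is thus controlled mainly as a protein, which RNA libraries do not measure, and targets such as EGLN3, ANKRD37 and CA9 are commonly read as signs of its activity.

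Values are TPM, a transcript abundance scaled for length and library total, which gives no total depth, and values of a group are listed in the order of replicates 1, 2 and 3. The targeted gene was checked first: NUDT5 stood at 46.2, 49.0 and 52.0 TPM in the siCtrl libraries and at 3.04, 2.74 and 2.67 TPM in the siNUDT5 libraries, and 5.74% of the siCtrl mean remained. The exact two-sided permutation p was 0.1, below which a design of 3 and 3 libraries cannot go. Of 10 bone and mesenchymal markers, 6 were at a mean of at least 1 TPM. The bone genes COL1A2, BGLAP and IBSP were below it, and SP7 was listed at 0 throughout. The markers' summed level ran from 4196 to 4482 TPM in siCtrl and from 4910 to 5013 TPM in siNUDT5. The mesenchymal gene VIM made up most of that sum, with group means of 3115 and 3551 TPM. Of 11 markers of other cell types in the table, only the epithelial gene EPCAM reached a mean of 1 TPM. Their sum ran from 8.05 to 13.5 TPM in siCtrl and from 5.80 to 6.05 TPM in siNUDT5. EPCAM made up most of it, at 7.18, 12.8 and 9.68 TPM in siCtrl and 5.10, 5.38 and 5.70 TPM in siNUDT5. It passed as lower in the fit given below (log2 change -0.74, limma adjusted p = 0.0271). The part of EPCAM in the results was not tested. One control library stood apart: the median absolute log2(TPM + 1) difference between siCtrl 2 and siCtrl 1 was 0.296, and between siCtrl 2 and siCtrl 3 it was 0.227. For the remaining pairs of one group it was 0.0967 to 0.134. Results that rest on it are given with and without it.

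The 10 genes did not move together. NDRG1 about doubled in siNUDT5, ANKRD37 was higher at a low level, and VEGFA was lower. HIF1A, EGLN1, EGLN3, VHL, ADM and BNIP3 had overlapping groups and did not pass the test, and CA9 was near 0. In the fit across all genes (limma on log2(TPM + 1), siNUDT5 minus siCtrl, two-sided, Benjamini-Hochberg adjusted p under 0.05), 2 of the 9 tested members were higher and 1 was lower. Over all 12236 genes tested, 16.1% passed, 10.9% as higher and 5.2% as lower. The members' median log2 change was 0.08, against 0.05 over all genes tested. With median-ratio scaling of the libraries 1041 genes of the whole table were higher and 895 lower, and with quantile normalization 1018 and 965, against 1334 and 636 with TPM as deposited. The groups did not overlap in 3 of the 9 tested members, where 37.3% of all tested genes had groups that did not overlap, 24.3% with siNUDT5 higher and 12.9% with siNUDT5 lower.

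**Figure D1:**
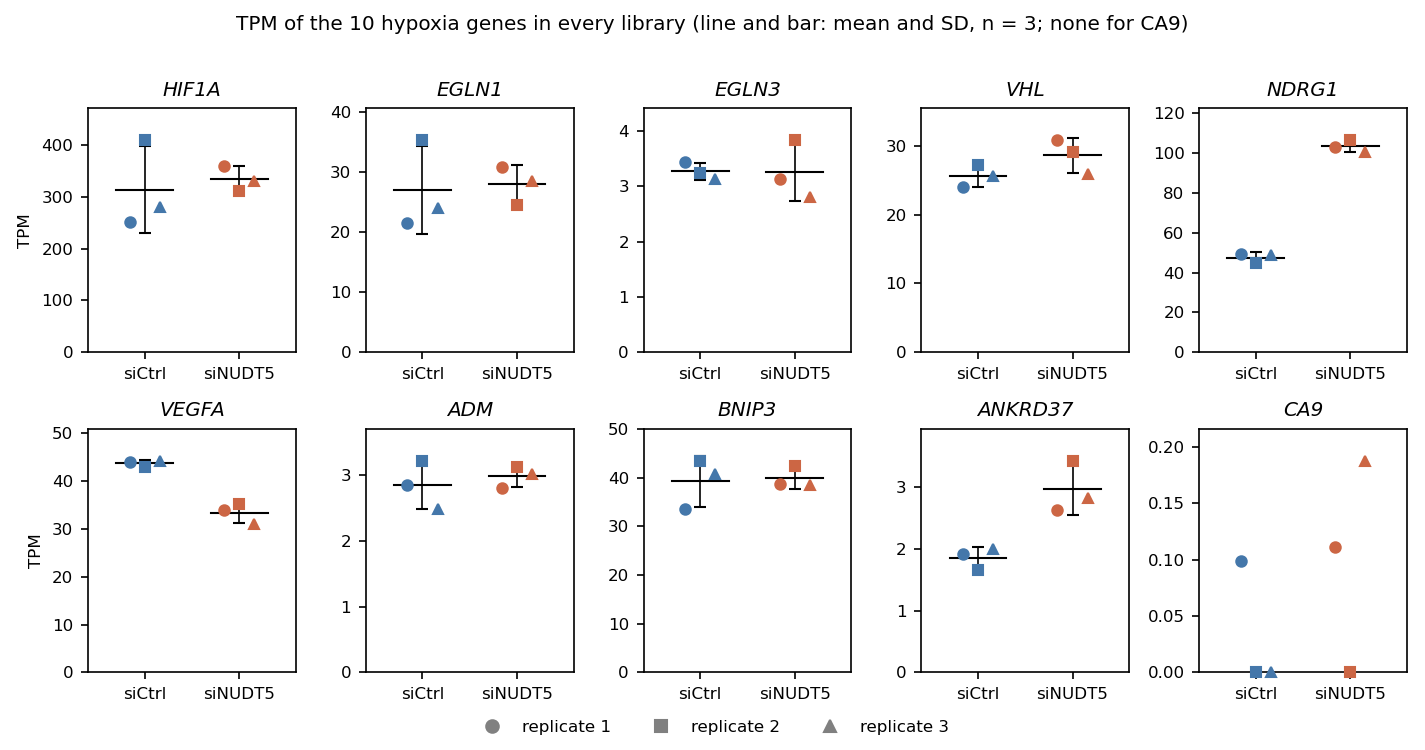
TPM of each of the 10 genes (one panel a gene, y axis from 0) in the 3 siCtrl and the 3 siNUDT5 libraries, with the marker's shape giving the replicate number; horizontal lines and bars are the group mean and SD (n = 3), left out for CA9, which is listed at 0 in 3 libraries. NDRG1 and ANKRD37 lie wholly above and VEGFA wholly below their siCtrl values. In HIF1A, EGLN1, ADM and BNIP3 the siCtrl 2 square is the highest point of the panel.

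In the siCtrl libraries the 10 genes spanned a wide range of levels. HIF1A was by far the most abundant, with a mean of 314 TPM, and its mean over the 6 libraries lay above 96.5% of all genes tested. NDRG1 (47.6 TPM), VEGFA (43.8 TPM), BNIP3 (39.3 TPM), EGLN1 (27.0 TPM) and VHL (25.6 TPM) followed. Among these the ranges of VEGFA and BNIP3, of BNIP3 and EGLN1, and of EGLN1 and VHL overlapped, so their order is not resolved. EGLN3 (3.27 TPM) and ADM (2.86 TPM) overlapped each other, ANKRD37 lay below them at 1.86 TPM, and CA9 came last. In siNUDT5 VEGFA fell below BNIP3, with ranges of 30.9 to 35.3 TPM and 38.5 to 42.4 TPM that no longer met, and ANKRD37 reached the range of ADM.

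HIF1A encodes the oxygen-regulated subunit of HIF-1. It stood at 251, 409 and 281 TPM in the siCtrl libraries and at 360, 310 and 330 TPM in the siNUDT5 libraries. The siCtrl values spread more widely than the siNUDT5 values and enclosed all of them, with siCtrl 2 the highest library. Group means were 314 ± 83.9 and 334 ± 24.9 TPM (SD, n = 3 each). The log2 change was 0.12 with a 95% interval from -0.26 to 0.50, and limma's adjusted p was 0.677. In bulk libraries more RNA per cell and more cells with the RNA cannot be told apart. siCtrl 2 held 1.54 times the mean HIF1A level of siCtrl 1 and siCtrl 3, and a ratio of at least 1.5 was found in 1018 of 12233 tested genes (8.32%). Without siCtrl 2 the HIF1A log2 change was 0.32 with a limma adjusted p of 0.00751, and both remaining siCtrl values lay below all 3 siNUDT5 values. Without siCtrl 1 it was -0.026, so the direction rested on which control library was kept. In the fit without siCtrl 2, 31.1% of all genes tested passed, and 4 of the 9 tested members did.

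EGLN1 (also PHD2), the main prolyl hydroxylase of HIF-1 alpha, followed the same pattern of libraries. It was at 21.6, 35.3 and 24.0 TPM in the siCtrl libraries and at 30.9, 24.6 and 28.6 TPM in the siNUDT5 libraries. Again siCtrl 2 was the highest, at 1.55 times the mean of the other siCtrl libraries, and the groups overlapped. The log2 change was 0.08 (95% interval -0.33 to 0.48, limma adjusted p = 0.805). It was 0.28 without siCtrl 2, with an adjusted p of 0.0545, and -0.061 without siCtrl 1.

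EGLN3 (also PHD3), a prolyl hydroxylase that is itself a HIF target, was low and flat. Its levels were 3.44, 3.24 and 3.14 TPM in the siCtrl libraries and 3.13, 3.84 and 2.80 TPM in the siNUDT5 libraries. The siNUDT5 values lay on both sides of the siCtrl values. The log2 change was -0.01 with a 95% interval from -0.29 to 0.27. EGLN1 exceeded EGLN3 by 6.27 to 10.9 times within the siCtrl libraries and by 6.41 to 10.2 times within the siNUDT5 libraries.

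VHL, the substrate receptor of the ligase that removes HIF-1 alpha, was at 24.1, 27.2 and 25.6 TPM in the siCtrl libraries and at 30.9, 29.1 and 25.9 TPM in the siNUDT5 libraries. The siNUDT5 values were on the high side, with siNUDT5 3 inside the siCtrl range. The log2 change was 0.15 (95% interval -0.08 to 0.38, limma adjusted p = 0.340), positive with any 1 library left out (0.10 to 0.22) and past the threshold in none of these fits.

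Of 27 other pathway regulators 25 were tested, and HIF1AN alone passed, while 24 did not. That is 4% of the regulators tested, against 16.1% of all genes tested. The list of regulators was written with earlier results of these data known, and this share is not a test of enrichment. HIF1AN encodes the asparagine hydroxylase known as FIH, which blocks the coactivator contact of HIF alpha proteins. It stood at 22.2, 22.0 and 22.2 TPM in the siCtrl libraries and at 31.6, 31.7 and 30.3 TPM in the siNUDT5 libraries. The groups were far apart beside their narrow spread, and the log2 change was 0.48 ± 0.08 (SE) with a limma adjusted p of 0.00719. It passed with any 1 library left out, with adjusted p up to 0.0495.

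EGLN2, another prolyl hydroxylase, was at 33.1, 23.1 and 30.5 TPM in the siCtrl libraries and at 37.8, 42.5 and 36.6 TPM in the siNUDT5 libraries. Its groups did not overlap and siCtrl 2 was the lowest library, opposite to EGLN1. The log2 change was 0.43 with a limma adjusted p of 0.0691, which misses the threshold, and the adjusted p was 0.0315 without siCtrl 1 and 0.0292 without siCtrl 2. Summed over EGLN1, EGLN2 and EGLN3, prolyl hydroxylase RNA ran from 57.7 to 61.7 TPM in siCtrl and from 68.0 to 71.7 TPM in siNUDT5. That sum was formed after the values were seen and was not tested.

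The alternative alpha subunit EPAS1 and the dimer partner ARNT showed no change past the threshold. EPAS1, which encodes HIF-2 alpha, was at 9.92, 11.6 and 10.6 TPM in the siCtrl libraries and at 11.2, 9.42 and 8.55 TPM in the siNUDT5 libraries, with a log2 change of -0.13. ARNT, with which the alpha subunits pair, was at 32.2, 33.1 and 31.1 TPM in siCtrl and at 31.1, 31.5 and 28.04 TPM in siNUDT5, with a log2 change of -0.09. Within single libraries HIF1A exceeded EPAS1 by 25.3 to 38.6 times. HIF3A, a further alpha subunit gene, was listed at 0 in 4 libraries and stood at 0.05 and 0.02 TPM in siNUDT5 1 and 2. Regulators other than HIF1AN passed when a single control library was left out: EGLN2, CUL2 (0.35, adjusted p = 0.0146) and OS9 (-0.29, adjusted p = 0.0123) without siCtrl 2, and EGLN2 and SENP1 (-0.41, adjusted p = 0.0438) without siCtrl 1. CUL2 is the cullin scaffold of the VHL ligase.

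**Figure D2:**
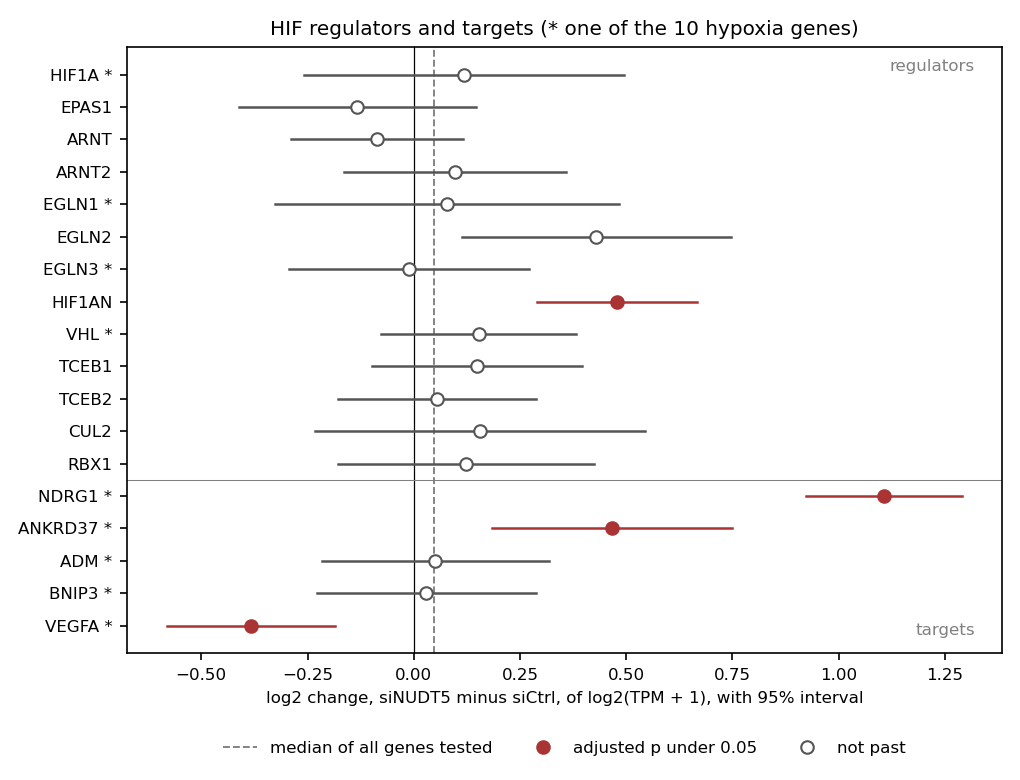
Log2 change (siNUDT5 minus siCtrl, limma on log2(TPM + 1), 3 libraries a group) with its 95% interval for HIF subunits, hydroxylases and the VHL ligase above the grey line and for 5 target genes below it; filled red points passed an adjusted p of 0.05 and the dashed line is the median of all genes tested. HIF1AN, NDRG1 and ANKRD37 lie to the right and VEGFA to the left, with the intervals of HIF1A, EGLN1, EGLN3 and VHL reaching across 0.

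NDRG1, a differentiation and stress gene induced by hypoxia and by iron depletion, had the largest change of the 10. It stood at 49.2, 44.6 and 48.9 TPM in the siCtrl libraries and at 103.2, 106.5 and 100.8 TPM in the siNUDT5 libraries. Each siNUDT5 library held more than every siCtrl library by a wide margin, and neither group spread by more than a few TPM. The means were 47.6 ± 2.56 and 104 ± 2.85 TPM (SD, n = 3 each), 2.18-fold higher in siNUDT5. The log2 change was 1.11 ± 0.08 (SE) with a limma adjusted p of 0.000298. It ran from 1.06 to 1.13 with any 1 library left out, and NDRG1 was the one member that passed in all 6 of these fits.

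ANKRD37, a small ankyrin repeat gene induced directly by HIF-1, was higher at a low level. It was at 1.91, 1.66 and 1.996 TPM in the siCtrl libraries and at 2.62, 3.42 and 2.83 TPM in the siNUDT5 libraries. The lowest siNUDT5 library lay above the highest siCtrl library. The means were 1.86 ± 0.175 and 2.96 ± 0.418 TPM (SD, n = 3 each), 1.59-fold higher, and the log2 change was 0.47 ± 0.12 (SE) with a limma adjusted p of 0.0372. The direction held with any 1 library left out (0.38 to 0.53), but the call held only without siCtrl 2 (adjusted p = 0.0360) and was lost without siCtrl 1 (0.0580), siCtrl 3 (0.0930), siNUDT5 1 (0.0693), siNUDT5 2 (0.151) and siNUDT5 3 (0.106). Median-ratio scaling gave an adjusted p of 0.0541 and quantile normalization 0.0587. In GENCODE 29 ANKRD37 overlaps UFSP2 on the opposite strand, and use of strand in counting was not given in the sources used here.

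VEGFA, which encodes the main angiogenic growth factor under HIF control, moved the other way. It stood at 44.1, 42.9 and 44.3 TPM in the siCtrl libraries and at 33.8, 35.3 and 30.9 TPM in the siNUDT5 libraries. The siCtrl libraries, siCtrl 2 included, agreed closely, and every siNUDT5 library was lower. The means were 43.8 ± 0.738 and 33.3 ± 2.19 TPM (SD, n = 3 each), with siNUDT5 at 76.2% of siCtrl, and the log2 change was -0.38 ± 0.09 (SE) with a limma adjusted p of 0.0210. Leaving out siCtrl 1 or siCtrl 2 kept the call. It was lost without siCtrl 3 (0.0977), siNUDT5 1 (0.0790), siNUDT5 2 (0.0632) and siNUDT5 3 (0.106), with log2 changes from -0.42 to -0.33. Within libraries NDRG1 and VEGFA were near parity in siCtrl, at a ratio of 1.04 to 1.12, and stood at a ratio of 3.02 to 3.26 in siNUDT5. That ratio restates the rise of NDRG1 and the fall of VEGFA and was not tested.

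ADM, which encodes the vasodilator peptide adrenomedullin, was at 2.85, 3.23 and 2.496 TPM in the siCtrl libraries and at 2.81, 3.12 and 3.02 TPM in the siNUDT5 libraries. All 3 siNUDT5 values fell within the siCtrl range, and the log2 change was 0.05 (95% interval -0.22 to 0.32). BNIP3, a mitochondrial receptor for mitophagy, was at 33.5, 43.5 and 40.8 TPM in the siCtrl libraries and at 38.8, 42.4 and 38.5 TPM in the siNUDT5 libraries. Here too the siNUDT5 values lay inside the siCtrl range, and the log2 change was 0.03 (95% interval -0.23 to 0.29). GENCODE 29 names 39 BNIP3 pseudogenes, and how reads shared with such copies were counted was not given in the sources used here, so this level is uncertain.

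CA9, the membrane carbonic anhydrase widely used as a hypoxia marker, was hardly present. It was listed at 0 in siCtrl 2, siCtrl 3 and siNUDT5 2 and stood at 0.0991 TPM in siCtrl 1, 0.111 TPM in siNUDT5 1 and 0.188 TPM in siNUDT5 3. It was under the mean of 1 TPM required for testing, and no fold is given. Besides ANKRD37, GENCODE 29 places genes on the opposite strand over parts of HIF1A, EGLN3, VEGFA, BNIP3 and CA9, and genes on the same strand over parts of HIF1A (AL137129.1) and EGLN3 (SPTSSA and the processed pseudogene AL356806.1). It also names 1 pseudogene each of HIF1A, EGLN1 and EGLN3. Reads of these neighbours and copies may be split or shared, and the levels are uncertain to that extent.

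**Figure D3:**
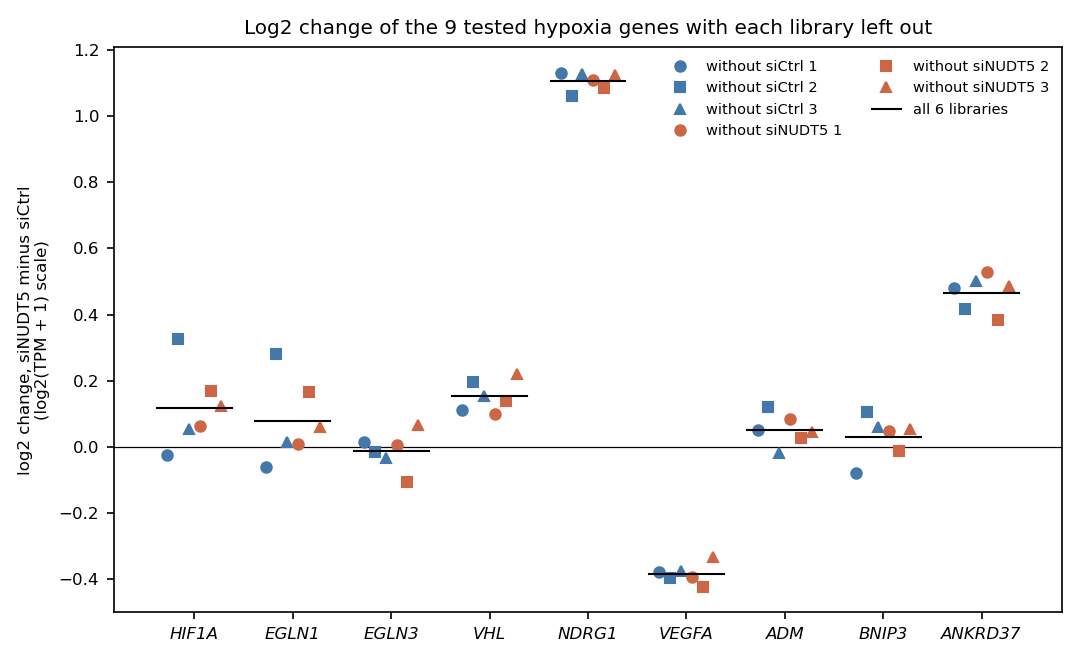
Log2 change (siNUDT5 minus siCtrl, log2(TPM + 1) scale) of the 9 tested hypoxia genes with all 6 libraries (black line) and with each library left out (points, coloured by the group of the library left out). NDRG1, ANKRD37 and VEGFA stay on one side of 0 throughout, while HIF1A and EGLN1 move from -0.026 and -0.061 without siCtrl 1 to 0.32 and 0.28 without siCtrl 2.

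The DNA word bound by HIF was looked for in the 250 bases before the annotated start of each member with a matched promoter, to set its presence beside the responses above. RefSeq promoters of GRCh38.p14 were matched for 7 of the 10 members (HIF1A, EGLN1, EGLN3, ADM, BNIP3, ANKRD37 and CA9). ACGTG, on either strand, was found in 4 of these 7, and it was found in 5935 of all 27305 symbols in the promoter table (21.7%) and in 2699 of the 9223 tested genes with a matched promoter (29.3%). With GCGTG added, 6 of the 7 held a match, against 47.4% of all symbols and 65.8% of the tested genes. The stretches that hold ACGTG are shown 5′ to 3′ on the gene's strand, with up to 20 bases on either side. Capitals mark ACGTG or its reverse complement CACGT, and CACGTG is an overlap of both. They lie at chr4:185396659-185396722 (plus strand) for ANKRD37, chr10:131982032-131982077 (minus strand) for BNIP3, chr9:35673890-35673927 (plus strand) for CA9 and chr1:231422288-231422320 (minus strand) for EGLN1.
ANKRD37: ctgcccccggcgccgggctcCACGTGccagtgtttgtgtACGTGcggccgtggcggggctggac
BNIP3: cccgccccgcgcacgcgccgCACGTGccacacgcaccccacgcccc
CA9: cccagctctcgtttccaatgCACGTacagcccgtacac
EGLN1: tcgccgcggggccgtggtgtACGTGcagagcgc

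VHL, NDRG1 and VEGFA had no matched promoter and were not searched, so the responses of NDRG1 and VEGFA are not covered here. Positions were taken for ACGTG only. GCGTG, read as CACGC on the other strand, also occurs in the BNIP3 stretch shown. Of the members searched, ANKRD37 alone held ACGTG at 2 separate places, beginning 162 and 143 bases before the start. BNIP3 held ACGTG at 134, CA9 at 18 and EGLN1 at 13 bases before the start. ANKRD37 was higher in siNUDT5, BNIP3 and EGLN1 did not pass the test, and CA9 was near 0 and not tested. Whether the word bears on these responses was not tested. A match in these letters is a description of the sequence and not evidence of binding. Among the other HIF targets listed below, 28 of the 64 with a matched promoter (43.8%) held ACGTG.

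To see how the 10 genes sit among further targets, 82 other genes reported to respond to HIF or to hypoxia, outside glycolysis, were listed by role. This list and its parts, like the glycolytic list, were written with earlier results of these data known. Their shares past the threshold describe the listed genes and are not a test of enrichment. Of 70 tested, 17 were higher, 7 were lower and 46 did not pass. That is 34.3% past the threshold, against 16.1% of all genes tested (10.9% higher and 5.2% lower), and the median log2 change was 0.18 against 0.05. With median-ratio scaling 14 were higher and 9 lower, and with quantile normalization 13 and 10. Leaving out siCtrl 1, 2 or 3 put the count past the threshold at 22, 35 or 11, and leaving out siNUDT5 1, 2 or 3 put it at 10, 9 or 13. The count over all genes moved with these fits, to 2075, 3804 or 868 and to 843, 775 or 764, from 1970 with all 6 libraries. The genes past the threshold in every one of these fits were DDIT4, ITGA5, JMJD6, RASSF1, STC1, TET1, TMEM45A and ZNF395.

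Among secreted factors and receptors 3 of 16 tested genes were higher, 1 was lower and 12 did not pass, so that 25% passed against 16.1% of all genes tested. The hormone gene STC1 (stanniocalcin) was at 1.71, 1.39 and 1.72 TPM in the siCtrl libraries and at 4.39, 4.77 and 4.36 TPM in the siNUDT5 libraries, with a log2 change of 1.08 and a limma adjusted p of 0.00110. All siNUDT5 values were more than double any siCtrl value. PGF, a VEGF family ligand, was at 8.76, 5.42 and 10.2 TPM in the siCtrl libraries and at 16.8, 17.1 and 14.8 TPM in the siNUDT5 libraries, a log2 change of 0.95, opposite in sign to VEGFA. PLAUR, the urokinase receptor gene, rose by 0.41 on the log2 scale. EDN1, which encodes the vasoconstrictor endothelin, changed by -0.39 on the log2 scale. With 1 library left out the adjusted p reached 0.0579 for PGF (without siNUDT5 1 or 2 it missed the threshold), 0.104 for PLAUR and 0.170 for EDN1 (both lost without siCtrl 3 or any 1 siNUDT5 library). EPO, LEP and ANGPTL4 were at or near 0 in all 6 libraries.

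In the list on mitophagy, acid and matrix 5 of 21 tested genes were higher, none was lower and 16 did not pass, so that 23.8% passed against 16.1% of all genes tested. ITGA5, the fibronectin receptor subunit, was at 79.5, 60.0 and 77.4 TPM in the siCtrl libraries and at 122.6, 134 and 121 TPM in the siNUDT5 libraries, with a log2 change of 0.80 and a limma adjusted p of 0.00388. The collagen crosslinking oxidase LOX (log2 change 0.59), the endoplasmic reticulum oxidase ERO1L (0.58), the collagen prolyl hydroxylase P4HA2 (0.46) and the lysyl hydroxylase PLOD1 (0.44) also rose. P4HA2 missed the threshold without siNUDT5 2 (adjusted p = 0.0524). PLOD1 was lost without siCtrl 3 or any 1 siNUDT5 library, with adjusted p up to 0.118, and LOX and ERO1L with any library but siCtrl 2 left out, up to 0.125 and 0.138. BNIP3L, the paralogue of BNIP3, was at 55.6, 79.8 and 58.8 TPM in the siCtrl libraries and at 94.5, 78.0 and 88.8 TPM in the siNUDT5 libraries, and its adjusted p was 0.0741.

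In the list of transcription, chromatin and signalling genes 9 of 33 tested were higher, 6 were lower and 18 did not pass. That is 45.5% past the threshold, against 16.1% of all genes tested, of which 10.9% were higher and 5.2% lower. DDIT4 (REDD1), an inhibitor of mTORC1 that is induced by hypoxia and also by ATF4, had the largest fall. It was at 78.5, 66.9 and 78.2 TPM in the siCtrl libraries and at 34.2, 41.5 and 35.3 TPM in the siNUDT5 libraries, a log2 change of -0.99 with a limma adjusted p of 0.00130. TMEM45A (-0.67), the Ras association domain gene RASSF1 (-0.66), ZNF395 (-0.66), GPRC5A (-0.40) and the phosphatase gene DUSP1 (-0.37) were the other falls. TET1, a DNA demethylase, had the largest rise, from 1.58, 2.23 and 1.56 TPM in the siCtrl libraries to 5.55, 3.74 and 3.73 TPM in the siNUDT5 libraries (log2 change 0.93). EFNA1 (0.65), the paired clock-linked repressors BHLHE41 (0.61) and BHLHE40 (0.45), JMJD6 (0.55) and the histone demethylase KDM4C (0.44) followed. With 1 library left out, the adjusted p reached 0.0626 for EFNA1 (lost without siNUDT5 1 or 2), 0.0652 for BHLHE40 (lost without siCtrl 3, siNUDT5 1 or 2) and 0.0507 for BHLHE41 (lost without siCtrl 3). GPRC5A and DUSP1 were lost without siCtrl 3 or any 1 siNUDT5 library, up to 0.0917 and 0.0842, and KDM4C with any library but siCtrl 2 left out, up to 0.134.

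Glycolytic HIF targets were set beside these genes for reference. Of 21 tested, 5 were higher, 1 was lower and 15 did not pass, so that 28.6% passed against 16.1% of all genes tested. SLC2A3 and PGAM1 (log2 change 1.74 and 1.73), ENO2 (0.57) and HK1 (0.48) led the rises, and PDK3 was lower (-0.45). The widely used hypoxia readouts differed. PGK1 passed as higher (0.26, limma adjusted p = 0.0326), while SLC2A1 (0.27, adjusted p = 0.0861), LDHA (-0.015) and PDK1 (-0.11) were not past the threshold. PDK3 was lost without siCtrl 3 or any 1 siNUDT5 library, with adjusted p up to 0.111. PGK1 was lost with any library but siCtrl 2 left out, up to 0.143.

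**Figure D4:**
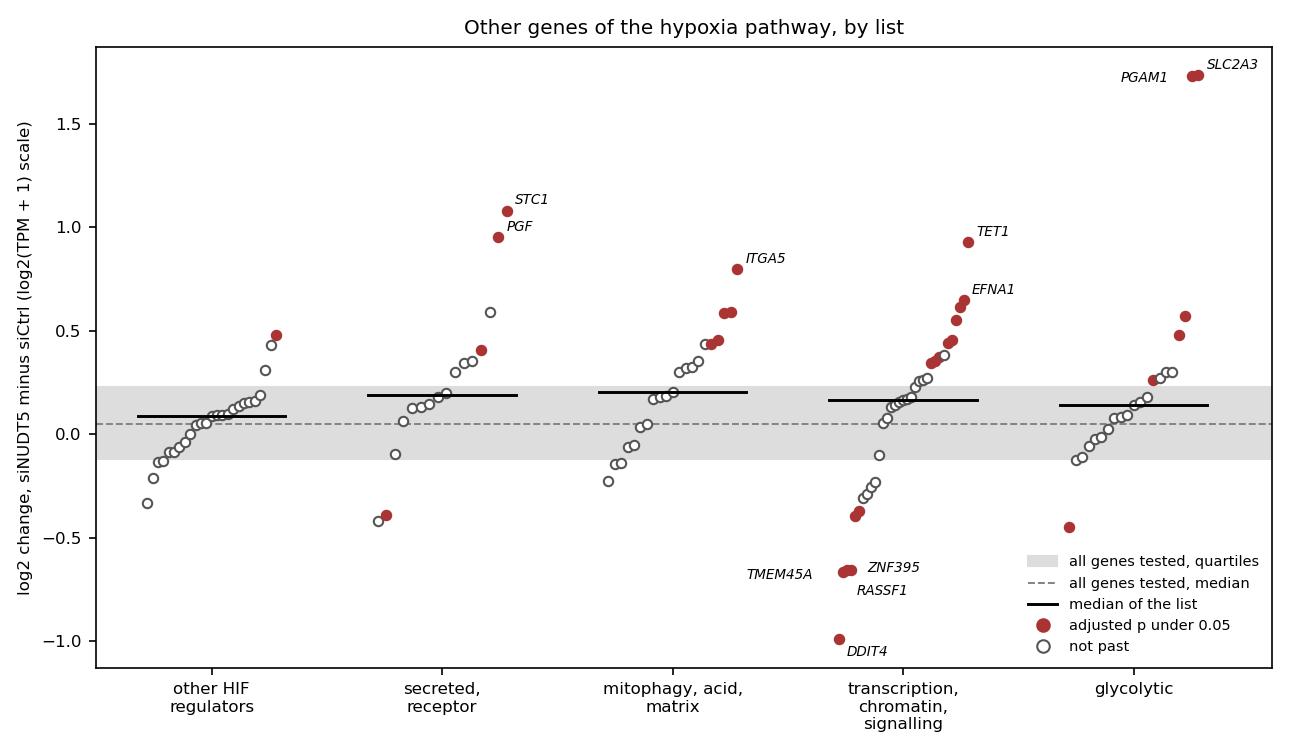
Log2 change (siNUDT5 minus siCtrl, log2(TPM + 1) scale) of each tested gene in the 5 lists of other pathway genes, ordered by size within a list; filled red points passed an adjusted p of 0.05, black lines are list medians, and the grey band and dashed line are the quartiles and median of all genes tested. Filled points lie on both sides of 0 in the transcription, chromatin and signalling list, from DDIT4 at -0.99 to TET1 at 0.93.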

How the data were processed

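RNA was measured in 6 U2OS libraries, 3 siCtrl and 3 siNUDT5, grouped and numbered by their titles; a stranded mRNA library kit was used, per the labels' protocols. The authors deposited TPM per gene symbol, each library summing to the same total. STAR 2.7.3a, DESeq2 1.22.1 and hg19 are named in the submitters' processing notes without a role. How TPM were computed, from which annotation, and whether strand was used were not given in the sources used here. Total depth is unknown, so no counting interval is given.

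Because TPM are not counts, no count model was run. limma 3.58.1 (R 4.3.3; lmFit, eBayes with a trend) was fitted to log2(TPM + 1) for 12236 genes whose mean over the 6 libraries reached 1 TPM, siNUDT5 minus siCtrl, with Benjamini-Hochberg adjustment over all of them and a threshold of 0.05. Log2 changes on this scale understate the change of low genes. The fit was tested on simulated data. The permutation test used scipy 1.17.1, figures matplotlib 3.10.9. All 10 members were named, together with fixed regulators, regulators past the threshold, up to 6 genes in each direction from each list of other HIF targets and up to 4 from the glycolytic list. Some further listed genes were named for reference. All 140 listed HIF genes were found by symbol, some by an older one. The members and lists were chosen with earlier results of these data known. Promoter sequences and coordinates are RefSeq's on GRCh38.p14; the table's own build differs and gives none.

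Each result was recomputed with a pseudocount of 0.1 or 5, without the filter on low genes or with a stricter one (5 TPM), after quantile normalization or median-ratio scaling, without the trend, with a replicate block and with each library left out in turn.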

Additional observations from a re-analysis of the deposited data

How the results depend on the processing

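NDRG1 passed under all 14 alternatives, with log2 changes from 1.05 to 1.13. With any 1 library left out the number of genes past the threshold ran from 1 to 4 among the 10 hypoxia genes, from 1 to 4 among the other regulators, from 9 to 35 among the other HIF targets, from 4 to 8 among the glycolytic targets and from 764 to 3804 among all genes. With the replicate number as a block these counts were 1, 0, 9, 4 and 739; VEGFA (adjusted p = 0.136), ANKRD37 (0.122) and HIF1AN (0.0756) were lost under the block and NDRG1 was not (0.00353). The labels give replicate numbers only. Deviations from the group mean correlated at -0.43, -0.54 and -0.04 for numbers 1, 2 and 3. No library correlated best with its own number. Deviations within a group of 3 libraries are tied to each other, and siCtrl 2 stood apart. These correlations therefore cannot decide whether the numbers pair the libraries. Among the other regulators 2 passed with median-ratio scaling and 2 with quantile normalization, in each case HIF1AN as higher and SENP1 as lower. Of the members that did not pass, some changed direction. With 1 library left out the log2 change ran from -0.026 (without siCtrl 1) to 0.32 for HIF1A, from -0.061 (without siCtrl 1) to 0.28 for EGLN1, from -0.11 to 0.065 (without siNUDT5 3) for EGLN3, which was also above 0 without siCtrl 1 (0.015) and siNUDT5 1 (0.0061), from -0.018 (without siCtrl 3) to 0.12 for ADM, and from -0.079 (without siCtrl 1) to 0.11 for BNIP3, which was also below 0 without siNUDT5 2 (-0.014). BNIP3 was at -0.024 with median-ratio scaling and -0.026 with quantile normalization, and ADM at -0.013 with the latter. The cause was not tested. A mean of at least 5 TPM leaves EGLN3, ADM and ANKRD37 untested. Precision at their level is limited by an unknown depth, and nothing here measures HIF protein.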
